A study of Mus musculus with 11 samples.

Results

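The Notch pathway was followed through 10 of the 22619 genes in the count table. They were 3 receptors (Notch1, Notch2 and Notch3), 4 ligands (Dll1, Dll3, Jag1 and Jag2) and 3 target genes (Hes1, Hes5 and Hey1), chosen by name as core genes of the pathway. The rule that picks them uses no measured value, but the choice was made with earlier results of these data known. The libraries came from SMB21, a mouse medulloblastoma line that carries a Ptch mutation (Ptch1tm1Mps/J strain background, age given as adult) and was grown as floating neurospheres in DMEM/F12 medium with B27, so every group shared the Ptch mutant background. The groups were untreated parental cells (3 libraries), parental cells after 24 h with sonidegib (2 libraries), Sufu mutants (2 libraries, from clones R13 and R1) and Ofd1 mutants (4 libraries, with replicates 1 and 2 both from clone R14, then 1 each from R16 and R25). Sonidegib inhibits Smoothened, the transducer of the Hedgehog signal. Sufu restrains the Gli transcription factors at the end of that pathway, and Ofd1 sits at centrioles, where cilia are built. The mutants were clones of this single line recovered in a transposon screen for resistance. Neither the sonidegib dose nor any drug exposure of the clones is stated in the labels.

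Notch receptors are cut when a Delta or Jagged ligand on a neighbouring cell binds them, and the freed intracellular domain enters the nucleus and joins RBPJ on DNA to switch on Hes and Hey genes. Those genes code for basic helix-loop-helix repressors that hold back proneural factors. In the developing cerebellum the pathway, Notch2 above all, is known for keeping granule cell progenitors dividing and undifferentiated. Dll3 differs from the other ligands in that it mostly acts inside the cell that makes it.

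Promoter windows were matched by symbol in a RefSeq table of build GRCm38.p6, which held 8 of the 10 genes. Hes1 and Hey1 had no entry. A window spans 300 bases around a transcript start, and it was searched on both strands for the RBPJ core TGGGAA, the Hes-binding N-box CACNAG and the Gli core ACCACCC. Hes5 was the single gene of the 8 with an RBPJ core, and it had 2 of them, while 25.6% of all 32851 windows held at least 1. An N-box was found in the windows of Notch1, Notch2, Notch3 and Dll1, against 42.5% of all windows, and a Gli core in none of the 8, against 4.61%. In Notch1, 2 of the 3 N-box matches overlap each other on opposite strands. A match is a description of the letters and shows no binding, and none of these libraries measured binding. The Hes5 sequence is shown because it carries both RBPJ cores, in capitals, starting 226 and 82 bases before the transcript start. It lies directly upstream of the gene at chr4:154960673-154960922 on the plus strand. The Jag1 sequence is shown because Jag1 had the smallest adjusted p of the 10 genes in any comparison. It lies upstream of the first exon at chr2:137116645-137116770 on the minus strand and holds none of the 3 motifs. Both are written 5′ to 3′ along the gene.
Hes5: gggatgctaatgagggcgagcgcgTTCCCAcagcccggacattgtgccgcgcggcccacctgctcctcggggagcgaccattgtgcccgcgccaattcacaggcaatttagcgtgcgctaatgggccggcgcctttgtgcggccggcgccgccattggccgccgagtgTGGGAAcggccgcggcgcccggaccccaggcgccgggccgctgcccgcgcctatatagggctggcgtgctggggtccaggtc
Jag1: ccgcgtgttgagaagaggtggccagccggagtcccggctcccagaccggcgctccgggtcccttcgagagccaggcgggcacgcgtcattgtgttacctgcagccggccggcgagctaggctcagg

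Library totals ran from 24308451 to 38241595 counts. Gli1, a direct Hedgehog target, was lower after sonidegib, at -4.80 ± 0.24 (SE) on the log2 scale (adjusted p = 0.00287). Ofd1 differed from parental cells by -1.35 ± 0.28 in the Ofd1 mutants (adjusted p = 0.0853), and Sufu by -1.48 ± 0.69 in the Sufu mutants (adjusted p = 0.563). All 9 granule cell progenitor markers averaged at least 1 CPM (counts scaled to a common library size), with summed levels of 2719 to 3103 CPM in parental cells, 3711 to 4077 after sonidegib, 2429 to 2630 in Sufu mutants and 2482 to 3415 in Ofd1 mutants. These markers did not move together after sonidegib. Ccnd1 was lower, at 840.5, 868 and 720 CPM in parental and 253 and 253 CPM in sonidegib libraries. Atoh1, Barhl1, Pax6, Neurod1, Nhlh1 and Mycn were higher in both sonidegib libraries than in any parental one, and Zic1 and Zic2 overlapped. Neurod1 is also a factor of differentiating granule cells, so the list is not specific to progenitors. Of 6 endothelial, 6 fibroblast and pericyte and 5 microglial markers, 1, 0 and 0 reached a mean of 1 CPM, and Cldn5 was at 0 in every library. Of 10 markers of neural stem cells and astroglia, 7 reached it, with sums of 696 to 794 CPM in parental cells, 719 to 780 after sonidegib, 496 to 573 in Sufu mutants, wholly below the parental range, and 443 to 771 in Ofd1 mutants. Singled out after their values were seen, Gfap was at 13.97, 15.9 and 35.4 CPM in parental and 101 and 105 CPM in sonidegib libraries, Nes at 317, 301 and 421 CPM in parental and 106 and 133 CPM in sonidegib libraries, and Sox2 at 31.8, 34.4 and 23.5 CPM in parental and 17.0 and 8.14 CPM in sonidegib libraries. Neuronal markers (6 of 7 at that mean, Gabra6 at 0 outside the Ofd1 mutants) summed to 613 to 1004 CPM in parental cells, 853 to 1389 after sonidegib, 726 to 949 in Sufu and 548 to 845 in Ofd1 mutants. Oligodendrocyte lineage markers (4 of 7) summed to 156 to 376, 60.5 to 88.9, 204 to 489 and 236 to 428 CPM in the same order. The part of these shifts in the Notch results was not tested, and in bulk RNA fewer cells of a type and less RNA per cell cannot be told apart. In sonidegib replicate 2 the deviation of genes from their mean over the libraries followed transcript length (Spearman -0.523 across genes, against -0.0129 to 0.216 elsewhere). Parental replicate 3 stood apart from parental replicates 1 and 2, with an SD of log2 differences across genes of 0.752 and 0.736, against 0.376 between replicates 1 and 2.

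Levels below are given as CPM, with library sizes scaled by TMM factors. Differences are log2 fold changes from the edgeR quasi-likelihood test, with p adjusted by Benjamini-Hochberg over all genes tested in a comparison, and a gene was called at an adjusted p under 0.05. By that rule 0 of the 10 genes was called in any of the 4 comparisons, so the values below describe differences that did not pass the main test, with DESeq2 calls given where there were any. The widest gaps between groups were those of Jag1, lower, and Hey1, higher, in both sonidegib libraries than in all 9 others. The 3 comparisons with parental cells share the same 3 parental libraries.

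Notch1, the receptor with the broadest known role, was at 173, 207 and 157 CPM in untreated replicates 1, 2 and 3 and at 118 and 70.4 CPM after sonidegib. Its levels were 166 and 102 CPM in Sufu clones R13 and R1 and 96.8, 153, 167 and 126 CPM in the Ofd1 libraries. Both sonidegib libraries lay below all 3 parental ones, while both clone classes overlapped the parental range. The sonidegib difference was -0.93 ± 0.29 (SE) with an adjusted p of 0.254, and DESeq2 gave 0.0649. With the trend on transcript length taken out it was -0.50, and without sonidegib replicate 1 it was -1.39 and called (adjusted p = 0.0178, in a range of 0.0178 to 0.630 over the alternatives). That refit leaves sonidegib replicate 2, the library with the length trend, as the lone treated library, and without it the difference was -0.63.

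Notch2, the receptor best known in granule cell progenitors, stood at 172, 203 and 241 CPM in the parental libraries and at 121 and 109 CPM after sonidegib. The Sufu clones held 221 and 161 CPM and the Ofd1 libraries 197, 166, 235 and 372 CPM. The sonidegib pair lay below every other library, and clone R25 lay above every other library. The sonidegib difference was -0.84 ± 0.23 (SE) with an adjusted p of 0.212, and DESeq2 called it at 0.0219. It shrank to -0.29 with the length trend taken out, where the groups overlapped, and without sonidegib replicate 1 it was called at 0.0437 (range over the alternatives 0.0219 to 0.583). In the clones the differences from parental cells were -0.10 ± 0.21 (SE) for Sufu and 0.24 ± 0.27 (SE) for Ofd1.

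Notch3, a receptor best known from vascular smooth muscle, had the fewest reads of the 3 receptors. Its levels were 4.22, 7.30 and 4.24 CPM in parental, 4.71 and 1.68 CPM in sonidegib and 7.48 and 3.63 CPM in Sufu libraries. The Ofd1 libraries held 3.25, 4.07, 4.80 and 10.6 CPM, and R25 was again the highest of all 11. Every group overlapped the parental range, and the adjusted p was at least 0.545 in each comparison.

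**Figure D1:**
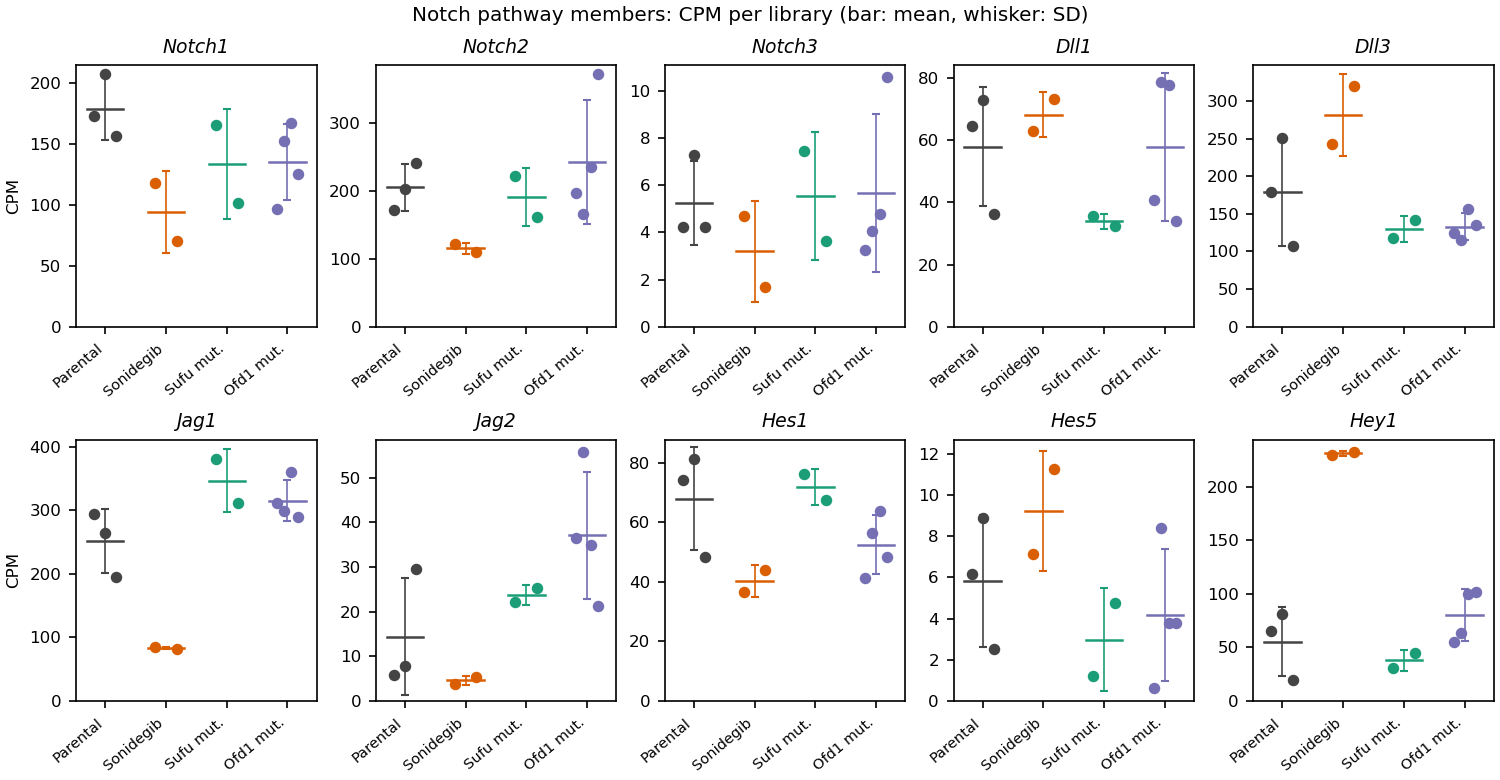
Level of each of the 10 Notch pathway genes in CPM (y axis, from 0, a separate scale per gene) in the 4 groups (x axis), with 1 point per library, a bar at the mean and a whisker of 1 SD. Jag1 at 84.8 and 82.6 CPM and Hey1 at 229.7 and 233 CPM after sonidegib lie clear of the other 9 libraries, while parental points spread widely for Jag2 and Hey1.

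Among the ligands, Jag1 had the difference with the smallest adjusted p. It was at 294, 264 and 196 CPM in the parental and at 84.8 and 82.6 CPM in the sonidegib libraries. Clones R13 and R1 held 381 and 311 CPM, and the Ofd1 libraries held 312, 299, 361 and 289.5 CPM. The sonidegib libraries nearly coincided and lay below all others, both Sufu clones lay above all parental libraries, and the Ofd1 libraries overlapped the top of the parental range. The sonidegib difference was -1.59 ± 0.25 (SE), from 251 ± 50.4 CPM (SD, n = 3) to 83.7 ± 1.61 CPM (SD, n = 2), with an adjusted p of 0.0847. DESeq2 called it at 2.07e-06. Adjusted p over the alternatives ran from 2.07e-06 to 0.350, and edgeR called Jag1 with no filter on low counts (0.0382), in a fit over all groups (0.0052) and without sonidegib replicate 1 (0.0209). The difference was -1.29 with the length trend taken out and -1.59 without sonidegib replicate 2. In the clones the differences were 0.46 ± 0.21 (SE) for Sufu (adjusted p = 0.546) and 0.33 ± 0.15 (SE) for Ofd1 (adjusted p = 0.391).

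Jag2, the other Jagged ligand, had the largest SD of log2(CPM + 1) over the 11 libraries among the 10 genes, 1.21. Its parental levels were 5.90, 7.78 and 29.5 CPM, with replicate 3 far above the other two, and its sonidegib levels were 3.904 and 5.33 CPM. The Sufu clones held 22.1 and 25.2 CPM and the Ofd1 libraries 36.5, 55.8, 34.9 and 21.3 CPM. Every clone library lay above parental replicates 1 and 2, but parental replicate 3 fell inside the range of the clones. The Ofd1 difference was 1.37 ± 0.57 (SE) with an adjusted p of 0.342, and without parental replicate 3 it was 2.43 and called at 0.0335 (range over the alternatives 0.0335 to 0.683). The Sufu difference was 0.71 ± 0.68 (SE), or 1.79 without that library. The sonidegib difference was -1.64 ± 0.74 (SE), or -0.59 without it, and neither was called.

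Dll1, a Delta ligand that activates receptors on neighbouring cells, was at 64.6, 72.9 and 36.4 CPM in parental and 63.1 and 73.2 CPM in sonidegib libraries. The Sufu clones held 35.6 and 32.2 CPM and the Ofd1 libraries 40.6, 78.7, 77.9 and 33.9 CPM. Both Sufu clones lay just under parental replicate 3, the lowest parental library, and the Ofd1 libraries fell into a high pair (R14 replicate 2 and R16) and a low pair (R14 replicate 1 and R25), so the libraries of clone R14 were split. The Sufu difference was -0.77 ± 0.31 (SE) with an adjusted p of 0.5003.

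Dll3, the atypical Delta ligand, was at 179, 251 and 107 CPM in parental, 243 and 320.1 CPM in sonidegib and 118 and 142 CPM in Sufu libraries. The Ofd1 libraries held 124, 115, 156 and 135 CPM. The clones clustered in the lower part of the wide parental range, and the sonidegib libraries overlapped only its highest member. The differences from parental cells were 0.65 ± 0.36 (SE) after sonidegib, -0.46 ± 0.34 (SE) in Sufu and -0.43 ± 0.25 (SE) in Ofd1 mutants, and the smallest adjusted p was 0.435.

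Of the targets, Hes1, a repressor that also responds to other signals, was at 74.1, 81.3 and 48.3 CPM in parental and 36.5 and 44.1 CPM in sonidegib libraries. The Sufu clones held 76.0 and 67.5 CPM and the Ofd1 libraries 41.2, 56.5, 63.8 and 48.4 CPM. The sonidegib libraries lay below the parental ones, and every Ofd1 library lay below both Sufu clones, while either clone class overlapped the parental cells. The differences were -0.76 ± 0.28 (SE) after sonidegib (adjusted p = 0.333) and -0.46 ± 0.18 (SE) for Ofd1 against Sufu mutants (adjusted p = 0.537).

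Hes5, the target most tightly tied to Notch in neural progenitors and the gene with the RBPJ cores shown above, was low in every library. It was at 6.15, 8.89 and 2.50 CPM in parental, 7.14 and 11.3 CPM in sonidegib and 1.21 and 4.73 CPM in Sufu libraries. In the Ofd1 libraries it was at 0.619, 8.41, 3.79 and 3.80 CPM. The lowest of these came from 20 counts and the highest from 273 counts, and both were libraries of clone R14. The groups overlapped in each of the 4 comparisons, and the smallest adjusted p was 0.574.

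Hey1, a Hes-related repressor, showed the reverse order to Hes1 after sonidegib. Its parental levels were 65.6, 81.2 and 19.3 CPM and its sonidegib levels 229.7 and 233 CPM. The Sufu clones held 30.9 and 44.7 CPM and the Ofd1 libraries 55.3, 63.2, 100 and 102 CPM. The sonidegib libraries lay at more than 2 times every other library, parental replicate 3 was the lowest of all 11, and each Ofd1 library lay above both Sufu clones. The sonidegib difference was 2.06 ± 0.53 (SE), from 55.4 ± 32.2 CPM (SD, n = 3) to 231 ± 2.13 CPM (SD, n = 2), with an adjusted p of 0.193. DESeq2 called it at 0.00844 (range over the alternatives 0.00844 to 0.446), and without parental replicate 3 it was 1.63. Ofd1 mutants differed from Sufu mutants by 1.07 ± 0.31 (SE) with an adjusted p of 0.446, and DESeq2 called this at 0.0455 (range over the alternatives 0.0455 to 0.704). Against parental cells the Ofd1 difference was 0.53 ± 0.45 (SE), or 0.11 without parental replicate 3.

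**Figure D2:**
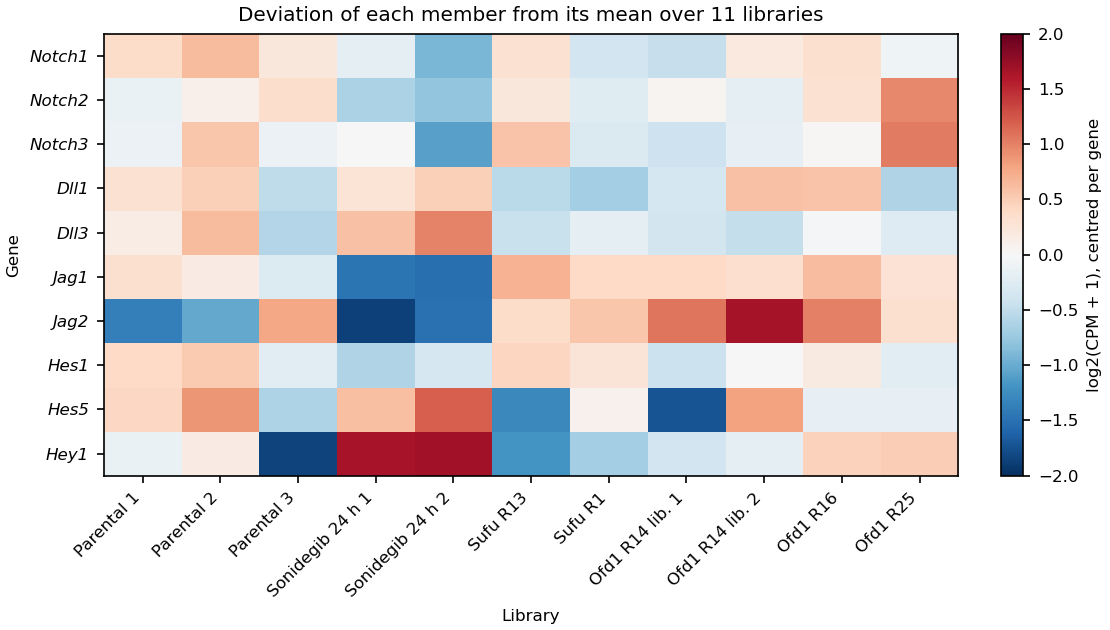
Deviation of each gene (rows) from its own mean over 11 libraries (columns), as log2(CPM + 1), with red above and blue below that mean and colours ending at 2 in either direction. The sonidegib columns are blue for Jag1 and Jag2 and red for Hey1, and parental replicate 3 differs from the other parental columns at Jag2, Hes5 and Hey1.

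Levels per kilobase allow a rough comparison of different genes. They were taken over the longest annotated transcript of each gene, whichever transcript the cells made. On this scale Dll3 led in parental cells at 68.4 ± 27.5 CPM per kb (SD, n = 3). Hes1 followed at 46.3 ± 11.8 and Jag1 at 44.8 ± 8.98, and these 3 ranges overlapped in turn. Hey1 (22.85 CPM per kb), Notch2 (19.6), Notch1 (18.9) and Dll1 (16.2) came next, each overlapping its neighbour in this order. Hey1 did not overlap Jag1 but its highest library (33.5) reached past the lowest of Hes1 (32.9), and Dll1 did not overlap Hes5. Hes5 at 4.59 overlapped Jag2 at 2.82, and Notch3 at 0.656 was the lowest without overlap. After sonidegib Hey1 at 95.4 CPM per kb stood next to Dll3 at 107.6 and overlapped it, while Jag1 at 14.9 lay below Dll1 and above Notch2 without overlap with either. Sonidegib replicate 2 carried the length trend, and the order was not computed with that trend taken out. In both clone classes Jag1 led, at 61.7 CPM per kb in Sufu mutants, clear of Dll3 at 49.6, and at 56.2 in Ofd1 mutants, where it overlapped Dll3 at 50.7.

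In sonidegib against parental cells, 6 genes of the 10 did not overlap between the groups. Hey1 was higher (1 gene, with 18% of all genes tested higher without overlap), and Notch1, Notch2, Jag1, Jag2 and Hes1 were lower (5 genes, background 16.2%). The main test called 0 of 10 (background 0.0652%), 5 had an unadjusted p under 0.05 (background 14%), and DESeq2 called 3 (Notch2, Jag1 and Hey1, background 5.64%). The median log2 difference of the 10 genes was -0.74, against 0.04 over all genes tested. Sonidegib replicate 2 carried the length trend, and this median was not computed with the trend taken out. The differences were then -0.50 for Notch1, -0.29 for Notch2, -0.42 for Notch3, -1.29 for Jag1 and -1.39 for Jag2. For Dll1, Dll3, Hes1, Hes5 and Hey1 they were 0.30, 0.56, -1.05, 0.25 and 1.95. With the length trend taken out, Notch1, Jag1 and Hes1 remained lower without overlap and Notch2 and Jag2 did not.

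In Sufu mutants against parental cells, Jag1 was higher without overlap (1 of 10, background 12.8%) and Dll1 lower (1 of 10, background 13.8%). The main test called 0 of 10, with a background of 0%, and 1 gene, Dll1, had an unadjusted p under 0.05 (background 9.68%). DESeq2 called 0 of 10 (background 2.25%). The median of the 10 was -0.26, against 0.00 over all genes. Without parental replicate 3, 5 of the 10 genes lay lower without overlap (Notch1, Dll1, Dll3, Hes5 and Hey1) and 2 higher (Jag1 and Jag2). The share over all genes was not computed for this smaller split. Leaving out a library can only raise such counts, so they cannot be set against the backgrounds above.

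In Ofd1 mutants against parental cells no gene of the 10 was free of overlap, neither higher (0 of 10, background 6.39%) nor lower (0 of 10, background 6.95%). The main test called 0 of 10 (background 0.363%), only Jag2 had an unadjusted p under 0.05 (1 of 10, background 13.8%), and DESeq2 called 0 of 10 (background 5.5%). The median of the 10 was 0.06, against 0.01 over all genes. Without parental replicate 3, Jag2 was higher and Notch1, Dll3 and Hes1 lower without overlap, but the share over all genes was not computed for that split.

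Ofd1 against Sufu mutants is the comparison that uses no parental library. Hey1 was higher without overlap (1 of 10, background 9.42%) and Hes1 lower (1 of 10, background 8.91%). The main test called 0 of 10 (background 0.00713%), 2 genes, Hes1 and Hey1, had an unadjusted p under 0.05 (background 8.93%), and DESeq2 called 1, Hey1 (background 2%). The median of the 10 was 0.18, against -0.00 over all genes. Both genes kept this order with plain library totals and with the length trend taken out. Leaving out a library or averaging the libraries of clone R14 cannot undo a lack of overlap, so those alternatives do not test this order.

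**Figure D3:**
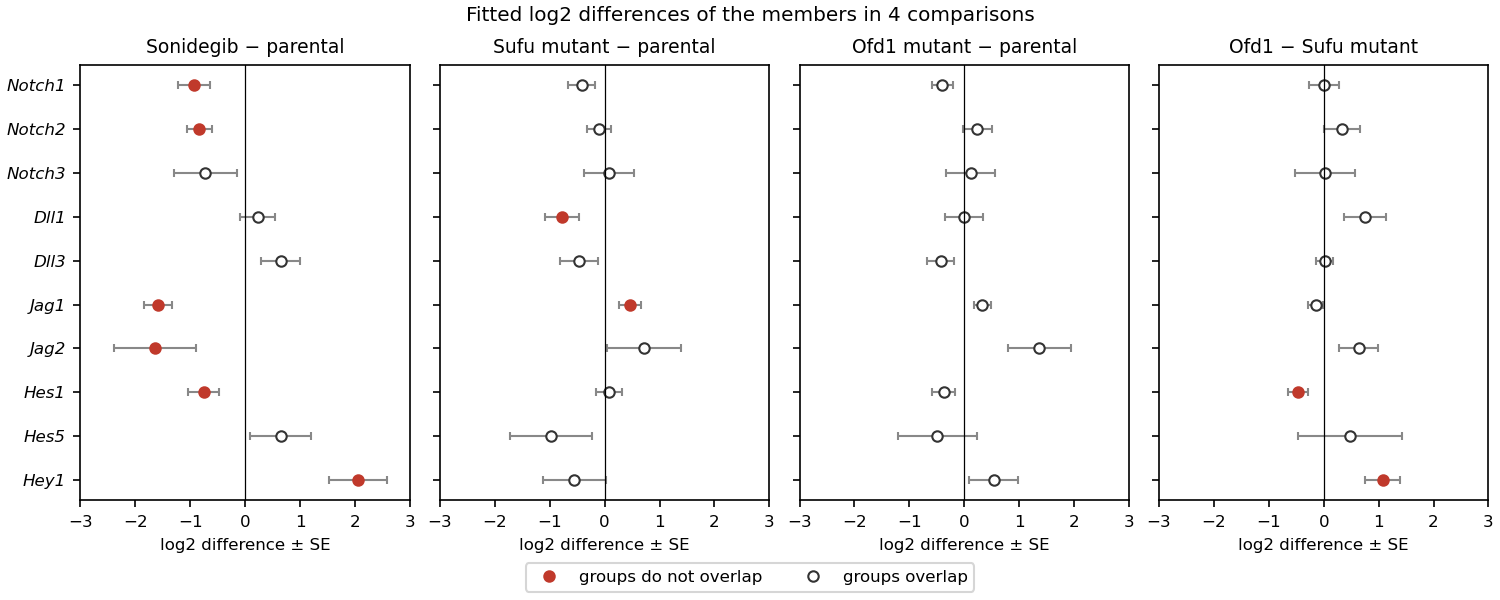
Log2 difference with its SE (x axis) of each gene (rows) in 4 comparisons (panels), with filled points where the groups do not overlap and open points where they do. Filled points number 6 for sonidegib, 2 for Sufu mutants, 0 for Ofd1 mutants against parental cells and 2 for Ofd1 against Sufu mutants.

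A list of 78 other pathway genes in 10 roles was read from the same fits. Of these, 69 were tested in each comparison with parental cells and 70 in Ofd1 against Sufu mutants, and 0 was called in any. The counts with an unadjusted p under 0.05 were 5 higher and 5 lower after sonidegib, 5 and 4 in Sufu mutants, 4 and 6 in Ofd1 mutants, and 2 and 6 in Ofd1 against Sufu mutants, with 14%, 9.68%, 13.8% and 8.93% of all genes tested past that p in either direction. DESeq2 called 5, 2, 3 and 2 in that order, where its background over all genes was 5.64%, 2.25%, 5.5% and 2%. Those 5 after sonidegib were Dner, Dtx1, Dtx3, Neurl1a and Lfng, the 2 in Sufu mutants were Dner and Dll4, and the 3 in Ofd1 mutants were Maml1, Maml2 and Neurod1, and Dll4 was called in Ofd1 against Sufu mutants at 0.00185; these names were picked out after the values were seen. The median log2 difference of the list was -0.07, 0.06, 0.04 and -0.03.

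Among the remaining ligands, Dner, a neuronal transmembrane protein reported to bind Notch, was at 47.9, 46.9 and 61.0 CPM in parental, 20.9 and 22.4 CPM in sonidegib and 256 and 135 CPM in Sufu libraries. The Ofd1 libraries held 92.9, 54.9, 47.7 and 161 CPM. Sonidegib libraries lay below and Sufu clones above all parental ones, with differences of -1.27 ± 0.23 (SE) at an adjusted p of 0.105 and 1.91 ± 0.29 (SE) at 0.178. DESeq2 called both, at 4.58e-05 and 4.68e-07. Dll4, a Delta ligand known from blood vessels, was at 0.599, 0.291 and 1.21 CPM in parental, 5.21 and 8.62 CPM in Sufu and 2.08, 2.40, 2.41 and 1.44 CPM in Ofd1 libraries. Its Sufu difference was 3.30 ± 0.64 (SE) with an adjusted p of 0.283 (2.19e-04 by DESeq2), and every clone library lay above the parental range. Dlk2 averaged under 1 CPM, and the receptor Notch4 was at 0.694, 0.900 and 1.24 CPM in parental and 1.07 and 2.24 CPM in sonidegib libraries.

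Of the genes that ubiquitinate ligands or modify signalling, Dtx1, a Deltex protein and reported Notch target, was at 195, 177 and 202 CPM in parental and 72.0 and 77.2 CPM in sonidegib libraries. That difference was -1.36 ± 0.20 (SE) with an adjusted p of 0.0847, and DESeq2 called it at 1.70e-08. Dtx3 stood at 71.6, 79.6 and 86.5 CPM in parental and 118 and 196 CPM in sonidegib libraries (adjusted p = 0.202, 0.0395 by DESeq2), and Mib2 ran between 39.7 and 98.0 CPM over all 11. A pair of genes was singled out after their values were seen. Neurl1a, a ubiquitin ligase of ligands, was at 9.77, 8.10 and 6.18 CPM in parental and 26.9 and 41.5 CPM after sonidegib (2.09 ± 0.33 (SE), adjusted p = 0.0847), and Lfng, a Fringe enzyme that adds sugars to the receptor, was at 21.8, 22.4 and 33.1 CPM in parental and 4.24 and 6.43 CPM after sonidegib (-2.28 ± 0.36 (SE), adjusted p = 0.0847). In both cases the sonidegib libraries lay clear of all parental ones, and DESeq2 called Neurl1a at 1.88e-06 and Lfng at 4.89e-08.

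**Figure D4:**
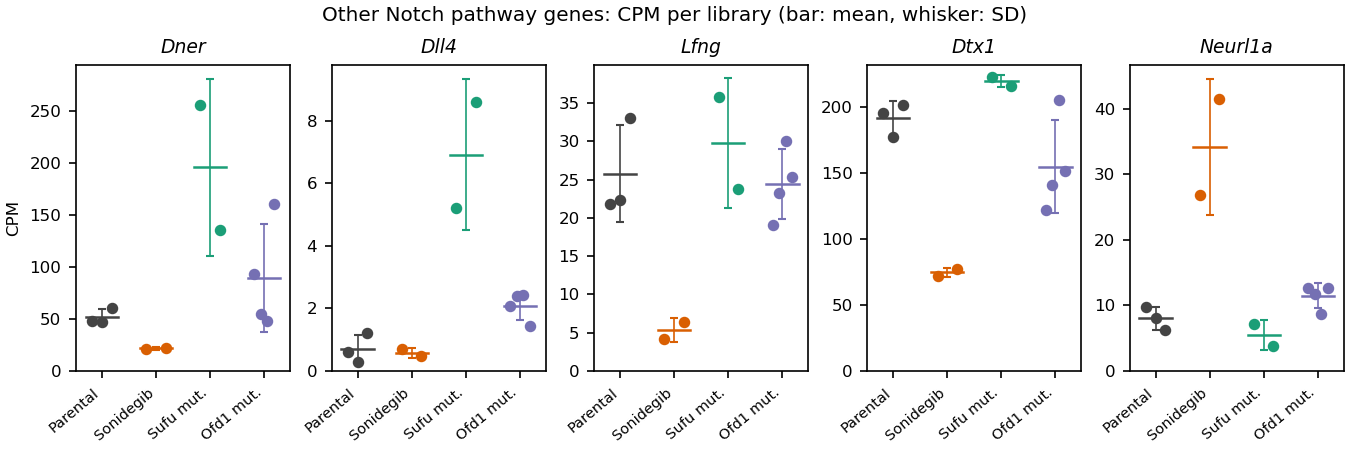
Level in CPM (y axis, from 0, a separate scale per gene) of 5 other pathway genes in the 4 groups (x axis), with 1 point per library, a bar at the mean and a whisker of 1 SD. The 5 genes were picked for the plot after their values were seen. Lfng at 4.24 and 6.43 CPM after sonidegib lies below its other 9 libraries.

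The enzymes and nuclear partners of the pathway were present in all groups. Of the glycosylation genes, Poglut1 ran from 221 to 306 CPM, Mfng from 57.6 to 124 CPM and Gxylt1 from 49.6 to 147 CPM over the 11 libraries. Of the protease subunits that free the intracellular domain, Ncstn was at 176 to 299.8 CPM and Aph1a at 136 to 177 CPM. Rbpj, the DNA-binding partner of Notch, was at 175, 166 and 128 CPM in parental and 191 and 101 CPM in sonidegib libraries, and Ep300 and Snw1, which act with it, stood at 126 to 277 CPM and 159 to 303 CPM. The corepressors Ncor1 and Ctbp1 stood at 167 to 474 and 246 to 370 CPM, with the lowest Ncor1 level in sonidegib replicate 2. Nedd4, Cul3 and Nedd4l, which act in turnover of receptors and other proteins, stood at 956 to 2647, 187 to 498 and 136 to 218 CPM.

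Other targets and proneural factors did not pass the edgeR test either. Bhlhe40 ranged from 31.4 to 189 CPM, Bhlhe41 from 20.5 to 48.5 CPM and Nrarp, a feedback inhibitor of Notch, from 3.63 to 30.3 CPM, with the highest Nrarp level in sonidegib replicate 2. Atoh1, the proneural factor of granule cell progenitors, was at 543, 469 and 398 CPM in parental and 962 and 719 CPM in sonidegib libraries, which differed by 0.83 ± 0.25 (SE) at an adjusted p of 0.239. Hes6, which counters Hes1, stood at 118, 142 and 100.3 and 179 and 263 CPM, and Id2, an antagonist of basic helix-loop-helix factors, at 149, 127 and 216 and 176 and 268 CPM. Atoh1 and Hes6 were higher in both sonidegib libraries than in any parental one.

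The genes whose pattern was nearest to a member were found for the 3 members with the largest SD, by the root mean square difference of centred log2(CPM + 1) over the 11 libraries among 10370 genes. For Jag2 they were Etv4 at 0.41 (Pearson r = 0.972), Grm4 at 0.42 and Mdga2 at 0.49. For Hey1 they were Rasd2 at 0.31 (r = 0.953), Nkain1 at 0.43 and Tstd3 at 0.56. For Hes5 they were Ccng2, Cyp39a1 and Mfge8 at 0.55, 0.55 and 0.58, with r of 0.844, 0.848 and 0.785. These are descriptions over 11 libraries that share groups and, in part, a clone.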

How the data were processed

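Poly(A) RNA of 11 SMB21 libraries was sequenced, with stranded library preparation per the labels' protocols. The authors deposited 1 table of raw counts per gene symbol. The submitters' processing notes name STAR, DESeq2 and build mm9, while no counting tool, annotation or version was given in the sources used here. The table held 22620 entries, and the one that names no gene (0.0131% to 0.0192% of a library) was left out. Totals ran from 24308451 to 38241595 counts per library, and without molecular identifiers such reads may repeat a molecule.

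Groups were compared pairwise, two-sided, with the edgeR 4.0.16 quasi-likelihood test (R 4.3.3, TMM factors, filterByExpr) and Benjamini-Hochberg adjustment over all genes tested, and DESeq2 1.42.0 was an alternative whose missing adjusted p-values stayed missing. The code was tested on simulated data in which the spread between libraries was capped at a low value. That test cannot show how often true changes would be called at the spread of these libraries. Clones or cultures labelled as biological replicates were the replicates, so p-values measure the spread between these samples, and clone R14 gave 2 libraries. Transcript lengths, the longest per symbol, came from GENCODE (GRCm38) for 13419 of 14246 genes (94.2%), and promoter windows from a RefSeq table (GRCm38.p6). Neither is the alignment build mm9, so they served for lengths, names and sequence only.

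The members and lists were chosen with earlier results of these data known. All 10 members are named, with up to 3 of the highest-mean genes per role of the pathway list and the 3 genes nearest to each of 3 members. A few genes that fall under this rule are left out of the text. Alternatives were DESeq2, RLE factors, no low-count filter, 1 fit over all groups, removal of the length trend, summing of clone R14, a replicate block and leaving out each library. Some alternatives for counts of genes without overlap were added after seeing the data.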

Additional observations from a re-analysis of the deposited data

Results flagged for a closer look

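Ncstn, which codes for the nicastrin subunit of the protease that frees the Notch intracellular domain, was at 299.8 CPM in the Ofd1-mutant library of clone R25. The other 3 Ofd1-mutant libraries held 222, 225 and 227 CPM, and the gap of R25 to the nearest of them was 0.940 of the whole range, above Dixon's critical value for 4 samples. The 10 members, the up to 3 pathway genes of highest mean in each role, and Lfng, Neurl1a, Hes3 and Neurod1 were examined in this way in the Ofd1 group, 42 in all, and chance flags about 1 in 20 groups.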

How the results depend on the processing

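Of 460 refits of the 10 genes, 28 changed sign and 12 passed the threshold. Since none of the 10 passed it in the main test, no call could be lost, and the other 420 are no sign of stability. Against 9 genes called after sonidegib, DESeq2 called 733, no filter on low counts 109, 1 fit over all groups 316, removal of the length trend 111 and leaving out each library in turn 0 to 3263. Of the 10 members, DESeq2 called 3, no filter 1, the fit over all groups 1 and leaving out each library 0 to 3. Members higher without overlap numbered 2 with plain library totals and 1 to 4 with each library left out, and members lower numbered 3 with the length trend removed. Dll1 after sonidegib ran from -0.040 to 0.40 when each library was left out.

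With the replicate number as a block, the sonidegib comparison called 97 genes and 2 members, Jag1 (-1.74, adjusted p = 0.0348) and Hey1 (1.66, adjusted p = 0.0407), and Dll1 was -0.019. The block rests on 2 shared numbers, and deviations of same-numbered libraries correlated at 0.241 for number 1 and -0.284 for number 2. With 2 sonidegib libraries, their deviations from the group mean mirror each other, so these values cannot decide whether same-numbered libraries were paired.

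Against 0 genes called in Sufu mutants, DESeq2 called 305, no filter 3 and leaving out each library 0 to 11. Left out in turn, libraries moved Notch2 from -0.36 to 0.10, Notch3 from -0.54 to 0.50 and Hes1 from -0.11 to 0.23, with 1 to 2 members higher and 1 to 5 lower without overlap. Against 50 genes called in Ofd1 mutants, DESeq2 called 755, no filter 84, the fit over all groups 9, summing clone R14 gave 1 and leaving out each library 0 to 329, with 0 to 1 member. There Notch2 ran from -0.044 to 0.38, Notch3 from -0.38 to 0.43 and Dll1 from -0.27 to 0.19, with 0 to 2 members higher and 0 to 3 lower without overlap, and 1 higher with plain totals.

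Against 1 gene called in Ofd1 against Sufu mutants, DESeq2 called 275 (1 member), no filter 2, summing clone R14 gave 0 and leaving out each library 0 to 11. Notch3 was -0.0071 with the length trend removed. Leaving out each library moved Notch1 from -0.31 to 0.40, Notch3 from -0.46 to 0.64, Dll3 from -0.10 to 0.15, Jag1 from -0.29 to 0.0098 and Hes5 from -0.20 to 1.76, with 1 to 3 members higher and 1 to 2 lower without overlap. The cause of these shifts was not tested. Where a refit left a group with 1 library, it was assumed to vary like the other group. Hes5 and Notch3 rest on the fewest counts. Leaving out a library can only keep or raise the number of members without overlap. No share over all genes was computed for those numbers.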

Other observations

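A pair of ratios was chosen after the values had been seen and is given as description. Per kilobase of transcript, the ratio of Jag1 to Dll3 was 0.768, 0.491 and 0.852 in the parental libraries, 0.163 and 0.120 after sonidegib, 1.51 and 1.03 in Sufu clones R13 and R1, and 1.17, 1.21, 1.08 and 1.00 in the Ofd1 libraries. The ratio lay under 1 in all 5 parental-line libraries and at or above 1 in all 6 clone libraries. The ratio of Hey1 to Hes1 was 0.537, 0.605 and 0.242 in parental, 3.81 and 3.20 in sonidegib, 0.246 and 0.401 in Sufu and 0.812, 0.677, 0.950 and 1.28 in Ofd1 libraries. Every Ofd1 library exceeded both Sufu clones and all 3 parental libraries in that ratio, and both sonidegib libraries exceeded all others. The length trend of sonidegib replicate 2 was not taken out of either ratio.

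Hes3, a Hes-family gene singled out after its values were seen, was at 1.13, 0.662 and 0.530 CPM in parental libraries and at 0.133 and 0.265 CPM after sonidegib, 0.242 and 0.169 CPM in Sufu and 0.155, 0.277, 0.0979 and 0.236 CPM in Ofd1 libraries. All 8 other libraries lay under the lowest parental one, at levels under 1 CPM, and no comparison called it (smallest edgeR adjusted p = 0.123, Ofd1 against parental). Neurod1, a proneural factor of differentiating granule cells that is also on the progenitor marker list above, was chosen in the same way. Its levels were 15.4, 16.1 and 13.5 CPM in parental, 19.0 and 28.2 CPM in sonidegib and 29.8 and 20.2 CPM in Sufu libraries. The Ofd1 libraries held 35.1, 25.6, 23.9 and 32.1 CPM, so that all 8 other libraries lay above the parental range. The edgeR adjusted p was 0.0634 for Ofd1 against parental cells, where DESeq2 called it at 7.93e-05, 0.447 for Sufu mutants and 0.362 for sonidegib.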
